A study of Mus musculus with 2 samples.

Results

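Serum amyloid A (Saa1, Saa2 and Saa3), lipocalin 2 (Lcn2), the orosomucoids (Orm1 and Orm2), serum amyloid P (Apcs), lipopolysaccharide-binding protein (Lbp) and the 2 hepcidin genes (Hamp and Hamp2) encode proteins that the liver secretes in inflammation or to control iron. These 10 genes were chosen by symbol from the 31053 gene rows of the table, and all 10 were present. They were followed in hepatocytes along the level of Nras. In hepatocytes with a high Nras level, 7 of the 10 fell, from 4.89-fold for Hamp to 20.9-fold for Hamp2 and further for the sparsely counted Saa1 and Orm2, where 11.8% of all genes tested were lower. Lcn2 was not called: in hashtag 1 its level in the high class was 0.204 of that at baseline, and in hashtag 2 it was 1.25 of it, with 243 of 563 UMIs in 1 cell.

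The cells came from the livers of 3 BL6 mice at day 6 after hydrodynamic tail-vein injection (HDTVi), which forces plasmid into a subset of hepatocytes. In 2 mice the transposon carried mVenus with oncogenic NRAS(G12V), and in 1 mouse it carried mVenus with NRAS(G12V/D38A). The latter form has a second change in the region that contacts RAS effectors, and the paper uses it as the non-oncogenic control. The CAGGS promoter, which is active in most cell types, drove both transgenes, so neither is under the control of the endogenous gene. Cells positive for mVenus were sorted from every mouse, so there was no uninjected mouse and no group sorted as mVenus-negative. By RNA, however, 14.4% of the hepatocyte barcodes defined below held an mVenus UMI. The mice were labelled with hashtag oligonucleotides and sequenced as 1 pooled library. The mice are named here by hashtag, because the sources pair them differently: in the deposited table hashtag 1 is NRAS(G12V/D38A) and hashtags 2 and 3 are NRAS(G12V), whereas the methods give hashtags 1 and 2 to NRAS(G12V) and hashtag 3 to NRAS(G12V/D38A).

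A barcode was counted as a hepatocyte when Alb, Apoa1, Apoa2, Ttr and Fgb together held at least 1% of its gene UMIs (unique molecular identifiers, each standing for 1 captured RNA molecule). Of 10211 barcodes that passed the quality limits, 8501 met the rule and 1710 did not. The rule sits in a continuous range, with 340 barcodes from 1.0% to under 1.2% and 222 from 0.8% to under 1.0%, and 2101 barcodes reached 5%. All 12 hepatocyte markers were detected, with a summed level of 87540 CPM (UMIs of a gene over all gene UMIs of the group, scaled to 1e+06) in hepatocytes of at least 10000 UMIs, 43767 CPM in shallower ones and 4931 CPM in barcodes under the rule. A hashtag could be called for 2278 hepatocytes (456, 1400 and 422 for hashtags 1, 2 and 3, with 10550150, 54045271 and 1854792 UMIs). No call was made for 6108, and 115 were doublets. Hashtag 2 cells were deepest, with a median of 40131 UMIs against 10166 in hashtag 1 and 2394 in hashtag 3.

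In the acute phase response, cytokines released by immune cells, chiefly IL-6 and IL-1, act on hepatocytes through STAT3, C/EBP factors and NF-kB and change the set of plasma proteins that these cells secrete. Hepcidin, the product of Hamp, binds the iron exporter ferroportin and lowers iron release into blood. Its transcription responds to iron through BMP and SMAD signalling and to inflammation through STAT3. Mice carry a second hepcidin gene, Hamp2, next to the first.

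The promoters of both hepcidin genes are shown because the pair is nearly identical but was detected at very different levels, that of Saa1 because its fitted fall was the largest, and that of Lcn2 because it was not called. Each is the 250 bases before the RefSeq start (GRCm38.p6, minus strand), printed 5′ to 3′ with motif matches in capitals. The Hamp2 and Lcn2 windows lie inside the gene spans given below, which come from another annotation (GENCODE) that starts these genes further upstream.
Hamp, chr7:30944030-30944279: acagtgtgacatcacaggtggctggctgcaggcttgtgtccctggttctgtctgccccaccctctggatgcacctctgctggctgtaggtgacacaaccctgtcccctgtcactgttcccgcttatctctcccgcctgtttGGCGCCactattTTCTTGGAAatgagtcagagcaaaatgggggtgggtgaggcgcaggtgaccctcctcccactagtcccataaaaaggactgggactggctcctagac
Hamp2, chr7:30924182-30924431: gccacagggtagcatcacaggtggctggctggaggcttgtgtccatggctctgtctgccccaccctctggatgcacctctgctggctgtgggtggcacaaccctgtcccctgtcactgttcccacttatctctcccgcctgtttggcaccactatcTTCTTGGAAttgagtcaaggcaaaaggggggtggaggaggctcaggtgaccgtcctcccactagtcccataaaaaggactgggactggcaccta
Saa1, chr7:46742981-46743230: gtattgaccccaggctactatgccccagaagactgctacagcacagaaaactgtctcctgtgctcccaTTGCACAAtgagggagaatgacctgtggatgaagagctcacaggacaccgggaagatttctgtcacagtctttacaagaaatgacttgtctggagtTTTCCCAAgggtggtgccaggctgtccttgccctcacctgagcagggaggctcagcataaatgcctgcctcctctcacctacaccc
Lcn2, chr2:32387740-32387989: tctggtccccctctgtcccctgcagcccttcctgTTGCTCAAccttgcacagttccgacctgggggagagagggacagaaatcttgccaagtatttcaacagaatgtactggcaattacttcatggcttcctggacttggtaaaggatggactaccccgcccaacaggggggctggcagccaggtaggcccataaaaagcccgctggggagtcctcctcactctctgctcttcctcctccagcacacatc
RefSeq promoters were matched for 8 of the 10 genes, with none used here for Orm1 and Lbp. The letters searched on both strands were GGCGCC for the BMP element, TTCNNNGAA for the STAT element, TTNNGNAA for the C/EBP element and GGNNTTTCC for the NF-kB element. They occurred in 9.65%, 7.04%, 36.8% and 4.93% of 32536 promoters of that length. The Hamp window held the BMP letters and the STAT letters, whereas the Hamp2 window held the STAT letters only. The aligned Hamp and Hamp2 windows were identical at 227 of 247 bases. The Saa1 window held the C/EBP letters at 2 places and the Lcn2 window at 1. A match describes the letters of the window, not a bound site.

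The transcripts of the near copies were compared for the reads they could share. Hamp (chr7:30942368-30944032, minus strand, GRCm38) and Hamp2 (chr7:30922372-30924681, minus strand) were 94.6% identical, and none of 310 windows of 91 bases, the length of the cDNA read, in the last 400 bases of Hamp occurred in Hamp2. Saa1 (chr7:46740497-46742980, minus strand) and Saa2 (chr7:46751790-46754313, plus strand) were 94.4% identical and likewise shared none of 310 windows. Orm1 (chr4:63344560-63348163, plus strand) and Orm2 (chr4:63362449-63365878, plus strand) shared 65 of 310 windows, so the split of counts between these 2 genes is uncertain. Sequencing errors can still move a read between copies, which was not tested. Saa3 lies at chr7:46711998-46715700, Lcn2 at chr2:32384633-32388252 and Apcs at chr1:172893961-172895041, all on the minus strand, and Lbp lies at chr2:158306493-158332852 on the plus strand.

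To ask how the genes varied with NRAS dose, the 2236 hepatocytes of at least 10000 UMIs were divided by their Nras CPM into baseline (under 300), low (300 to under 1000), intermediate (1000 to under 3000) and high (3000 or more). The classes held 153, 31, 24 and 23 cells of hashtag 1 and 827, 137, 93 and 72 cells of hashtag 2. Hashtag 3 had 21 baseline cells and 1, 1 and 2 cells in the other classes, so every difference between classes rests on hashtags 1 and 2. By the methods both of these mice carried NRAS(G12V). By the deposited table hashtag 1 carried NRAS(G12V/D38A), so its classes would be levels of the non-oncogenic form. The pairing was not settled, so the fits cannot be read as a response to oncogenic RAS in 2 mice. mVenus UMIs per cell followed the Nras class, at means of 0.286, 3.73, 9.94 and 20.9 over all deep hepatocytes. An mVenus UMI was found in 17.3%, 79.6%, 93.75% and 99.25% of the cells of these classes. Most baseline cells thus had no mVenus RNA detected, and whether they carried the transgene was not tested. UMIs were summed per hashtag and class and compared by edgeR's quasi-likelihood test with the hashtag as a block and Benjamini-Hochberg adjustment over 10628 genes. The share of UMIs from the 5 hepatocyte genes of the rule moved with Nras too, from 9.21% at baseline to 4.72% at high, and its part in the results was not tested. Barcodes with markers of other cell types made up 24.8% of baseline and 4.35% of high cells in hashtag 1, where the summed dendritic markers were at 2634 and 682.4 CPM, against 251.5 and 387.4 CPM in hashtag 2. Without such barcodes 8 of 9 members tested were lower in the high class, in a fit that called 2893 of 10419 genes in either direction. The part of these barcodes in the results was not tested beyond that.

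Of the 10 genes, 7 were lower in the high class than at baseline and none was higher, where 11.8% of all genes tested were lower and 11.9% were higher. The intermediate class also had 7 lower, against 9.56% lower and 9.38% higher among all genes. In the low class 1 of 10 was lower, against 2.49% lower and 2.64% higher. The median log2 difference of the 10 genes was -1.12, -1.81 and -2.62 in the low, intermediate and high classes, and that of all genes tested was between -0.01 and -0.02. With the hepatocyte rule at 5%, 5 members were lower in the high class, where 1018 of 8418 genes were called in either direction, and 2 in the intermediate class. DESeq2 called 4 in the intermediate class. Counting intervals given with CPM values are exact 95% Poisson intervals and those with shares are exact 95% binomial intervals, and both cover counting error only.

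**Figure D1:**
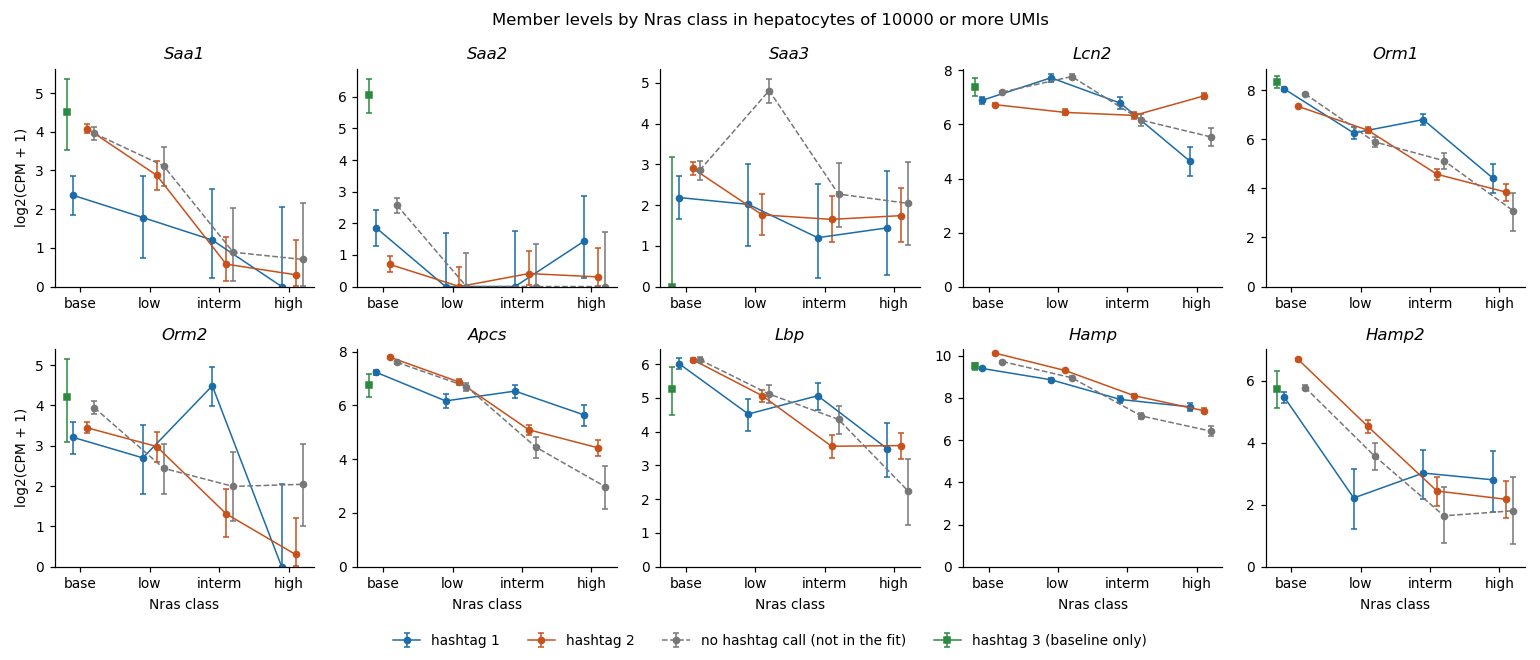
Level of each of the 10 genes, as log2(CPM + 1), in the 4 Nras classes of hepatocytes of at least 10000 UMIs, with lines for hashtags 1 and 2 and for cells without a hashtag call, squares for the baseline cells of hashtag 3, and exact 95% Poisson intervals as bars. Hamp steps down in each line, whereas Lcn2 in hashtag 2 was at 105 CPM at baseline and 132 CPM in the high class.

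Hamp was the most abundant of the 10 genes and fell with Nras in both mice. In hashtag 1 it was at 673.5, 463, 242 and 189.5 CPM in the baseline, low, intermediate and high classes. In hashtag 2 the same classes were at 1108, 629, 274 and 167 CPM. Each class was lower than the one before it in both mice. The 665, 91, 58 and 37 deep hepatocytes without a hashtag call, which were not in the fit, gave 843, 494, 141 and 84.9 CPM. The fitted log2 difference for Hamp was -2.29 (SE 0.20, edgeR adjusted p = 1.93e-05) in the high class and -1.75 (SE 0.19, edgeR adjusted p = 0.000144) in the intermediate class. In the low class it was -0.66 (SE 0.18), with an edgeR adjusted p of 0.0696. With the hepatocyte rule at 5% the value was -1.10 (edgeR adjusted p = 0.0133) in the high class, and the intermediate call was lost at -0.84 (edgeR adjusted p = 0.0788). The intermediate call was also lost with classes set by mVenus, at -1.0 (edgeR adjusted p = 0.0734), and without hashtag 1 in sums of at least 1 cell, at -2.29 (edgeR adjusted p = 0.0538).

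Hamp2, the second hepcidin gene, fell in all 3 classes and was the only gene called in the low class. Hashtag 1 had 43.4, 3.66, 7.14 and 6.00 CPM from baseline to high, and hashtag 2 had 102, 22.2, 4.44 and 3.52 CPM. Baseline was above every other class in both mice. The log2 differences for Hamp2 were -2.31 (SE 0.33, edgeR adjusted p = 0.00313), -4.06 (SE 0.42, edgeR adjusted p = 0.000107) and -4.39 (SE 0.47, edgeR adjusted p = 8.13e-05) in the low, intermediate and high classes. With no replicate block the call in the low class was lost, at -2.08 (edgeR adjusted p = 0.0637). Few cells carried what was left: 1 cell held 6 of the 7 Hamp2 UMIs of the high class in hashtag 1, and 1 cell held 12 of 15 in hashtag 2. At baseline 1 cell of hashtag 2 held 635 of 3624 UMIs, and the level without it was 84.5 CPM.

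The share of Hamp2 in the summed Hamp and Hamp2 UMIs was lower in Nras-bearing cells. It was 6.05% (5.31 to 6.85) at baseline and 3.07% (1.24 to 6.22) in the high class of hashtag 1, and 8.46% (8.19 to 8.72) and 2.06% (1.16 to 3.38) in hashtag 2. The intervals of hashtag 2 did not overlap and those of hashtag 1 did. In barcodes under the rule the share was 13.2% (11.4 to 15.1). Depth moved with the share as well. Among baseline-Nras hepatocytes it was 16.1%, 14.3%, 13.6% and 6.04% in the classes of 1000 to 3000, 3000 to 10000, 10000 to 30000 and at least 30000 UMIs, and the median depth of deep hepatocytes was 36003 UMIs at baseline and 52762 UMIs in the high class. The part of depth in the difference between Nras classes was not tested, and the shares were not tested over samples.

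**Figure D2:**
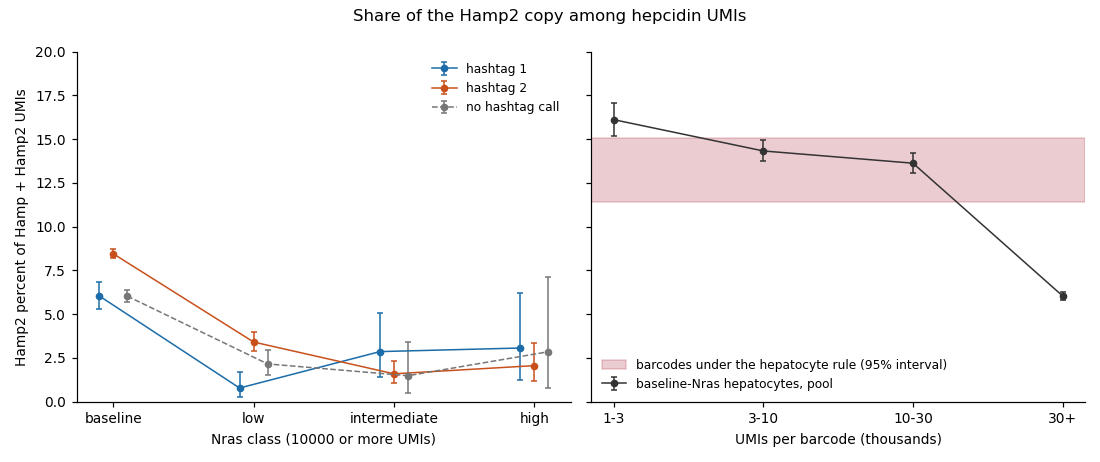
Percentage of Hamp2 among the summed Hamp and Hamp2 UMIs by Nras class (left, by hashtag) and by depth class of all baseline-Nras hepatocytes (right, where the band is the interval for barcodes under the hepatocyte rule), with exact 95% binomial intervals as bars. The share was lower in each Nras class than at baseline, and by depth it went from 16.1% in the shallowest class to 6.04% in the deepest.

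The remaining Hamp was compared with that in barcodes under the hepatocyte rule. After every barcode was thinned to 2000 UMIs, 45.95% of baseline and 8.33% of high cells of hashtag 2 held a Hamp UMI, against 10.4% of barcodes under the rule (median depths before thinning 41918, 59300 and 9286 UMIs). In hashtag 1 the values were 47.1%, 13.0% and 12.6%, at median depths of 28435, 50645 and 9604 UMIs. The share of high cells with a UMI was thus close to that of barcodes under the rule. The level was not: barcodes under the rule were at 77.6 CPM (69.1 to 86.8) in hashtag 1 and 47.7 CPM (42.2 to 53.6) in hashtag 2, below the 189.5 and 167 CPM of high cells. In the high class 1 cell held 43.4% of the Hamp UMIs of hashtag 1 and 28.1% of those of hashtag 2, and without it the levels were 114 and 122 CPM. The barcodes under the rule also held hepatocyte markers, and the source of their Hamp UMIs was not tested. Of the barcodes under the rule, 10 of hashtag 1 and 23 of hashtag 2 were too shallow to be thinned.

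The serum amyloid A proteins are carried on high-density lipoprotein and climb steeply in inflamed mice, but these genes were low here. Saa1 was at 15.9, 6.32, 0.494 and 0.235 CPM in hashtag 2, which is 562, 45, 3 and 1 UMIs. In hashtag 1 it was at 4.11, 2.44 and 1.30 CPM, from 22, 4 and 2 UMIs, and no UMI was counted in the high class. Each class was below the one before it in both mice. Its log2 difference was -6.02 (SE 0.72, edgeR adjusted p = 0.000186) in the high class and -4.24 (SE 0.52, edgeR adjusted p = 0.000305) in the intermediate class. The size in the high class is poorly fixed by so few UMIs: the ratio to baseline in hashtag 2 was 0.0148 (0.000373 to 0.0827), and against a floor of 3 counts Saa1 was at least 1.60-fold lower in hashtag 1. At baseline 9.80% of cells in hashtag 1 and 7.86% in hashtag 2 held a Saa1 UMI, so few cells set the level there.

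Saa3, which is made by macrophages and other cells as well as by hepatocytes, was at 3.55, 3.05, 1.30 and 1.72 CPM in hashtag 1 and at 6.47, 2.39, 2.14 and 2.35 CPM in hashtag 2. It fell in the intermediate class, with a log2 difference of -1.52 (SE 0.42, edgeR adjusted p = 0.0298), and in the high class it was at -1.35 (SE 0.45, edgeR adjusted p = 0.0529). With no replicate block the intermediate value was -1.28 (edgeR adjusted p = 0.212). In hashtag 2 the share of cells with a Saa3 UMI did not fall, at 9.55%, 10.95%, 11.8% and 11.1% from baseline to high, though the later classes were deeper. Thinned to 2000 UMIs, 9 of 827 baseline cells and 0 cells of the other classes held one. How far a few cells set the baseline level of Saa3 was not tested. Saa2 had at most 22 UMIs in any class of hashtags 1 and 2 and was not called in any class. In hashtag 3 all 30 baseline UMIs of Saa2 were in 1 cell, as were all 10 of Saa1.

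The orosomucoids are abundant glycoproteins that bind drugs and lipids in plasma. Orm1 was at 264, 75.7, 111 and 20.6 CPM in hashtag 1 and at 161, 82.2, 22.9 and 13.4 CPM in hashtag 2. The high class was the lowest in both mice, and the low and intermediate classes changed places between them. Orm1 fell by 3.60 on the log2 scale (SE 0.45, edgeR adjusted p = 0.000256) in the high class and by 1.94 (SE 0.38, edgeR adjusted p = 0.00557) in the intermediate class. The intermediate call was lost with the hepatocyte rule at 5%, at -0.68 (edgeR adjusted p = 0.426), and with DESeq2, at -1.85 (DESeq2 adjusted p = 0.056). Orm2 was at 8.22, 5.49 and 21.4 CPM in the first 3 classes of hashtag 1 and had no UMI in the high class, where it was at least 3.20-fold lower. In hashtag 2 it was at 9.88, 6.89, 1.48 and 0.235 CPM. Orm2 fell in the high class by 5.48 on the log2 scale (SE 1.56, edgeR adjusted p = 0.0274), on 1 UMI in hashtag 2, and was not called in the intermediate class. The call for Orm2 was lost with classes cut at 200, 700 and 2000 CPM of Nras, at -0.93 (edgeR adjusted p = 0.483).

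Apcs, a pentraxin that binds amyloid fibrils and is the main mouse acute phase pentraxin, was at 149, 70.8, 91.5 and 48.9 CPM in hashtag 1. In hashtag 2 it was at 220, 115.5, 33.1 and 20.4 CPM. Apcs fell by 2.65 on the log2 scale (SE 0.50, edgeR adjusted p = 0.00309) in the high class and by 1.75 (SE 0.45, edgeR adjusted p = 0.0204) in the intermediate class. The intermediate call for Apcs was lost in 6 alternatives, with values from -0.58 (edgeR adjusted p = 0.999, without hashtag 1 in sums of at least 1 cell) to -1.67 (DESeq2 adjusted p = 0.199), among them no replicate block at -1.48 (edgeR adjusted p = 0.0664). The high call was lost with the hepatocyte rule at 5%, at -1.42 (edgeR adjusted p = 0.1). In the high class of hashtag 1, 1 cell held 75.4% of the Apcs UMIs, and the level without it was 12.7 CPM. Lbp, which hands bacterial lipopolysaccharide to CD14, was at 63.7, 22.0, 32.4 and 10.3 CPM in hashtag 1 and at 69.0, 32.5, 10.9 and 11.0 CPM in hashtag 2. Every class above baseline was below it in both mice. Lbp fell by 2.60 on the log2 scale (SE 0.38, edgeR adjusted p = 0.00066) in the high class and by 1.94 (SE 0.34, edgeR adjusted p = 0.00262) in the intermediate class, where the call was lost with the hepatocyte rule at 5%, at -1.12 (edgeR adjusted p = 0.14).

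Lcn2, which withholds iron from bacteria by binding their siderophores, did not step down class by class in either mouse when all cells were counted. In hashtag 1 it was at 117.5, 211, 110 and 24.0 CPM, and in hashtag 2 at 105, 86.3, 79.8 and 132 CPM. The high class was the lowest of hashtag 1 and the highest of hashtag 2. Of the 563 Lcn2 UMIs in the high class of hashtag 2, 243 were in 1 cell. The level without it was 76.9 CPM (68.7 to 85.9), below the 105 CPM of baseline. The log2 difference of Lcn2 was -0.28 (SE 0.52, edgeR adjusted p = 0.766) in the high class, and it was not called in any class. With classes set by mVenus it was called in the high class, at -0.40 (edgeR adjusted p = 0.0226). The slopes over the classes differed between the mice by 0.61 (SE 0.32, edgeR adjusted p = 0.765) in a test that called 0.00949% of genes. Thinned to 2000 UMIs, 15.7% of baseline and 4.35% of high cells of hashtag 1 held an Lcn2 UMI, and 14.3% and 6.94% of those of hashtag 2, at the median depths given for Hamp. Barcodes under the rule were at 2.47% and 1.10%. Neutrophils also make Lcn2. All 7 neutrophil markers were under 1 CPM each over deep hepatocytes, 2 of them at 0, but their summed level in hashtag 1 was 11.8 CPM at baseline and 0 in the other classes, against 0.339 to 0.823 CPM in the classes of hashtag 2. Their part in the result was not tested.

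**Figure D3:**
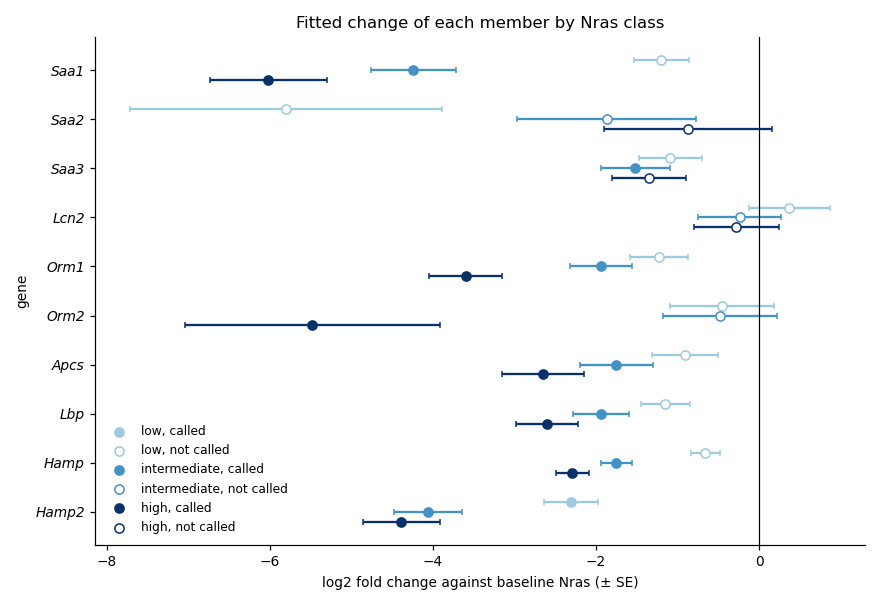
Fitted log2 difference of the 10 genes from baseline Nras in the low, intermediate and high classes, with the standard error as bars and calls at an adjusted p under 0.05 marked. Hamp2 lay below zero by more than its error in all 3 classes, and Lcn2 was at -0.28 (SE 0.52) in the high class.

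Most of the other acute phase genes tested were lower in the high class, where 11.8% of all genes tested were lower and 11.9% higher. Of 24 other positive acute phase genes tested, 19 were lower and 4 higher in the high class, with a median log2 difference of -1.39. Crp fell by 3.25 and Serpina3k by 3.03 on the log2 scale, whereas the IL-1 receptor antagonist Il1rn rose by 2.82 and Cd14, the receptor that takes lipopolysaccharide from Lbp, rose by 1.62. Of 10 negative acute phase genes, whose products drop in inflammation, 6 were lower and 1 higher, with a median of -0.65. Serpina6, which carries corticosteroids, fell by 4.89 on the log2 scale and Igf1 fell by 3.15. Positive and negative acute phase genes thus both had more lower than higher calls. The higher calls, 4 of 24 and 1 of 10, are too few to set apart from the share among all genes.

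Genes that act upstream of the members, or beside hepcidin in iron control, were counted in the same way. Of 17 genes of IL-6 and STAT3 signalling, 5 were lower and none was higher in the high class, among them Lifr at a log2 difference of -1.74 and the feedback inhibitor Socs3 at -1.67. Of 14 genes of IL-1, TNF and NF-kB signalling, the receptor subunit Il1rap fell by 2.70 on the log2 scale and Nfkb2 rose by 1.24. Of 17 hepcidin control genes, 5 were higher and 3 lower. Hfe2, which encodes the BMP co-receptor hemojuvelin, fell by 3.33 on the log2 scale, and the ligand Bmp6 rose by 2.08. Of 14 iron handling genes, 2 were higher and 3 lower, including the transferrin receptor Tfrc at -2.76 and the heme-degrading enzyme Hmox1 at 1.05. The medians of these 4 lists were -0.34, 0.19, -0.09 and -0.20. Beside the 11.9% higher and 11.8% lower among all genes, the counts of the IL-1, TNF and NF-kB list and of the iron handling list are too small to set either list apart, and no list was tested as a set.

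Within the baseline class the genes were unevenly spread over cells. Among 1666 deep baseline hepatocytes, 79.6% held a Hamp UMI, 75.9% an Apcs UMI, 68.4% an Lbp UMI, 53.7% an Lcn2 UMI and 49.2% an Orm1 UMI. For Hamp2 it was 24.3%, and the tenth of cells with most Hamp2 held 94.2% of its UMIs, against 36.2% for Lbp. Over the 153 cells of hashtag 1 and the 827 of hashtag 2, Pearson's r of log2(CPM + 1) was 0.35 and 0.37 for Hamp with Hamp2, 0.46 and 0.43 for Orm1 with Hamp, and 0.35 and 0.50 for Orm1 with Lcn2. Not every pair was positive. In hashtag 1 Lbp was at -0.29 with Orm1, -0.32 with Hamp2 and -0.17 with Hamp. In hashtag 2 these pairs were at 0.12, 0.07 and 0.17. Pearson's r with the share of UMIs from the genes of the rule was 0.48 and 0.63 for Apcs in hashtags 1 and 2. It was 0.09 and 0.49 for Hamp, 0.05 and 0.44 for Orm1, and -0.22 and 0.24 for Hamp2. The part of that share in the correlations between genes was not tested. These correlations describe cells that share a library and differ in depth.

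**Figure D4:**
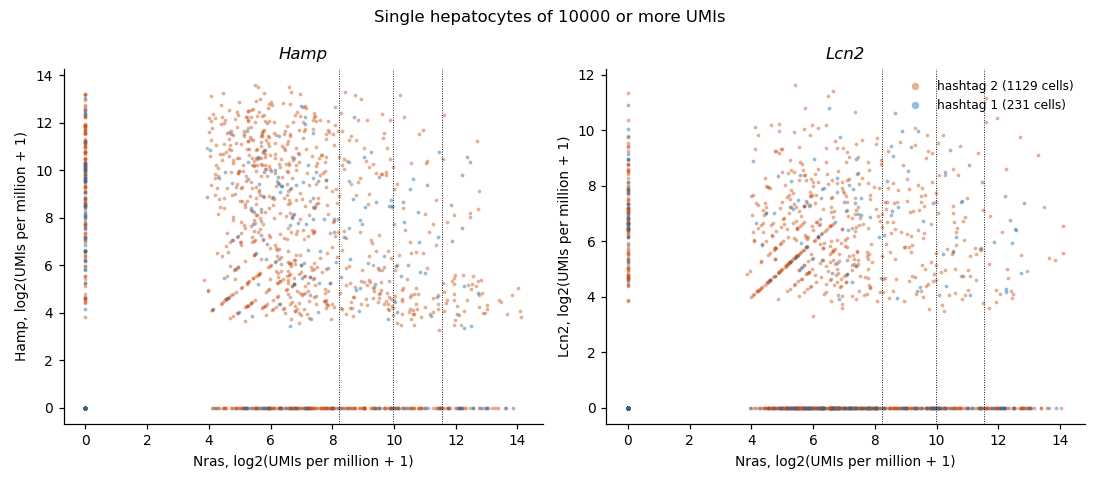
Hamp (left) and Lcn2 (right) against Nras in hepatocytes of at least 10000 UMIs of hashtags 1 and 2, 1 point per cell, both axes as log2(CPM + 1), with dotted lines at the bounds of the Nras classes. Cells on the floor hold no UMI of the gene, and diagonal streaks are cells with few UMIs of it. Among deep baseline cells 79.6% held a Hamp UMI and 53.7% an Lcn2 UMI.

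The genes whose log2 levels were most like a member over the 9 sums of hashtag and class were found among 4392 genes of sufficient level. Hamp was nearest to Apoc1 (r = 0.989), Ugt2b35 (r = 0.987) and Dgat2 (r = 0.986). Hamp2 was nearest to Gucd1 (r = 0.977), Slc6a13 (r = 0.959) and Acsl1 (r = 0.949), and Orm1 to Hopx (r = 0.988), Etfdh (r = 0.982) and Fnip1 (r = 0.982). The closest genes to Saa1 were Stt3b (r = 0.977), Lifr (r = 0.969) and Zfp36l1 (r = 0.965), and the closest to Lcn2 was 1700021F05Rik (r = 0.906). The sums share 1 library, and 4 Nras classes of 2 mice make up 8 of them.

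Depth was examined within baseline Nras, between deep hepatocytes and those under 10000 UMIs. Of 9 genes tested, 3 were higher in deep cells and 2 lower, where 17.3% and 15.6% of 7082 genes were. Saa3 was too low to be tested. Over all hashtags and uncalled cells, Lbp was at 68.3 CPM in deep and 16.3 CPM in shallow cells, Apcs at 204 and 114.5 CPM, and Lcn2 at 120 and 88.2 CPM. Orm1 and Hamp2 went the other way, at 194 and 521.5 CPM and at 81.1 and 167 CPM. Hamp was at 981 and 953 CPM. The fit used only cells with a hashtag call, so it does not test these pooled levels, where 4409 of 5179 shallow cells had no call. Its log2 differences were 1.52 for Lbp (SE 0.45, edgeR adjusted p = 0.0379), 1.02 for Lcn2 (SE 0.29, edgeR adjusted p = 0.031), 0.90 for Apcs (SE 0.25, edgeR adjusted p = 0.0305), -0.91 for Orm1 (SE 0.28, edgeR adjusted p = 0.0425) and -1.09 for Hamp2 (SE 0.22, edgeR adjusted p = 0.0105).

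Shallow baseline cells also differed in composition. Their median mitochondrial share was 0.31% against 8.45% in deep baseline cells, and the 5 genes of the rule held 3.60% of UMIs against 9.21%. The summed endothelial markers were at 326.8 CPM against 27.9 CPM. The part of these differences in the depth result was not tested. No member was called under a fixed hashtag rule, where 3 of 10 had an unadjusted edgeR p under 0.05, or with the hepatocyte rule at 5%, where 1 of 6 had and Lcn2 and Apcs were at -0.38 and -0.02. With no replicate block 1 member was called.

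**Figure D5:**
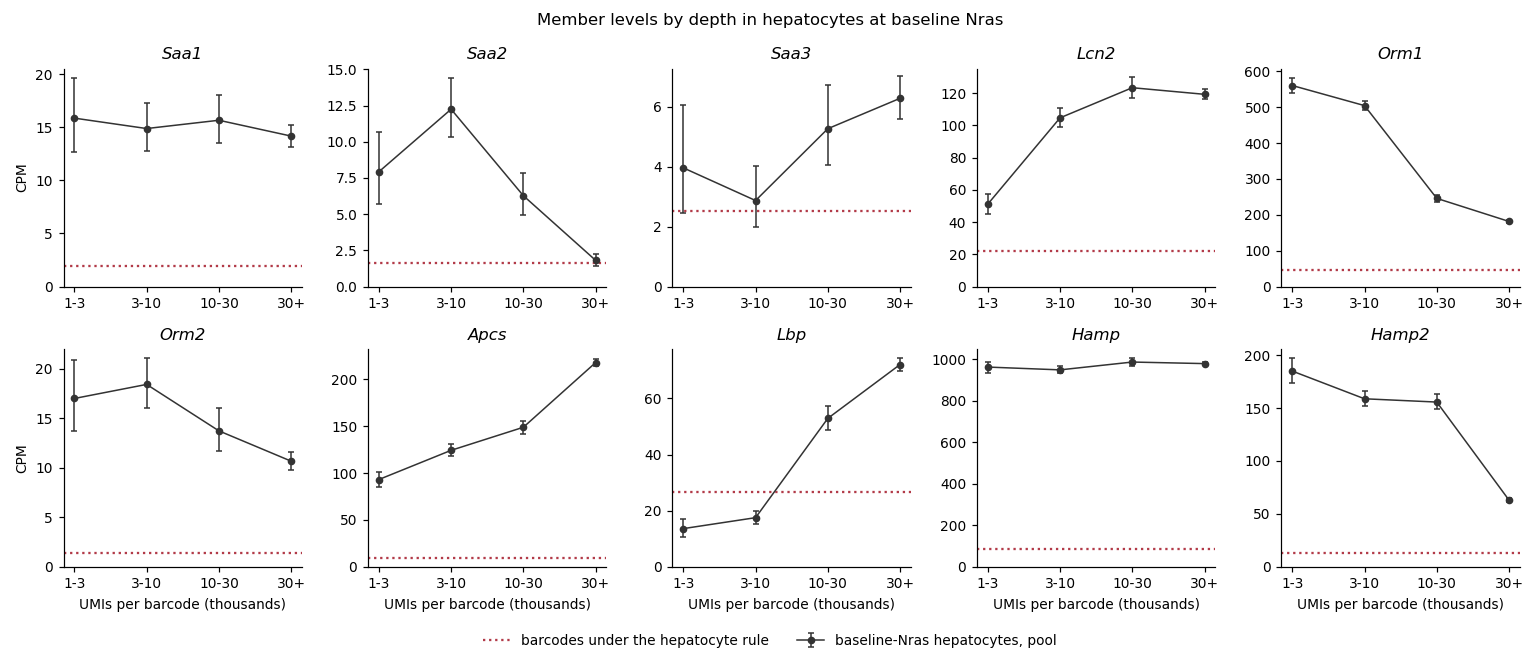
CPM of the 10 genes (linear axes from 0) by depth class of baseline-Nras hepatocytes, from 1000 to 3000 UMIs up to 30000 or more, with exact 95% Poisson intervals as bars and a dotted line at the level in barcodes under the hepatocyte rule. Orm1 declined from 560.2 to 181.4 CPM over the depth classes, Lbp climbed from 13.6 to 72.1 CPM and Hamp stayed between 949.2 and 986.9 CPM.

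Over all hepatocytes of a mouse, Hamp was at 530, 875 and 687 CPM in hashtags 1, 2 and 3 and Hamp2 at 35.3, 74.3 and 105 CPM. Orm1 was at 228, 128.5 and 325 CPM, Lcn2 at 119, 101 and 88.4 CPM, Apcs at 117, 167 and 65.8 CPM and Lbp at 42.5, 52.0 and 39.9 CPM. The rarer Saa1, Saa2, Saa3 and Orm2 stayed between 0.740 and 24.3 CPM. Under the deposited pairing, Saa1 and Hamp2 were at least 2-fold higher in both NRAS(G12V) mice than in the NRAS(G12V/D38A) mouse. For Saa1 this rests on 26 UMIs in hashtag 3, of which 14 were in 1 cell, and without it the level there was 6.48 CPM against 5.02 CPM in hashtag 1. For Hamp2 it did not hold in cells of at least 10000 UMIs, at 26.4, 72.3 and 41.0 CPM in hashtags 1, 2 and 3. It did hold for Hamp2 with the hepatocyte rule at 5%, at 24.2, 104 and 53.3 CPM. With the fixed hashtag rule neither gene was 2-fold apart in both mice, and Hamp2 was lower in hashtag 2 than in hashtag 1, at 35.4 and 58.7 CPM. Under the pairing in the methods, with the main rules, neither was, and Saa2 was at least 2-fold lower in both NRAS(G12V) mice. This rests on 45 Saa2 UMIs in hashtag 3, of which 30 were in 1 cell. With the hepatocyte rule at 5% it did not hold, and Saa2 was at 0.188, 0.758 and 0 CPM in hashtags 1, 2 and 3. With the fixed hashtag rule and this pairing, Saa1 and Hamp2 were at least 2-fold lower in both as well. There Saa1 was at 6.78, 14.1 and 32.7 CPM and Hamp2 at 58.7, 35.4 and 120 CPM. With 1 NRAS(G12V/D38A) mouse under either pairing there was no test. The mice also differed in depth and composition. Cells of at least 10000 UMIs were 231 of 456, 1129 of 1400 and 25 of 422 hepatocytes in hashtags 1, 2 and 3. The summed endothelial markers of these mice were at 103, 24.1 and 2819 CPM. The part of depth and composition in the levels by mouse was not tested.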

How the data were processed

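RNA from mVenus-sorted liver cells of 3 hashtagged mice was read as 1 pooled single-cell 3′ library with a hashtag library. The authors deposited raw UMI counts per gene and barcode (Cell Ranger, 3.0.2 in the file header and 2.1.1 in the submitters' processing notes, mm10) and hashtag counts.

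Quality limits (500 genes and 1000 UMIs as minimums, mitochondrial share below 20%, presence in both libraries) left 10211 of 13151 barcodes. Both libraries shared 13141 barcodes. Hashtags were called with HTODemux (Seurat 5.3.0, positive quantile 0.99), which also marked the doublets that were left out of the hashtag sums. Nras, mVenus and the 6 hashtag rows were kept out of totals and tests. UMIs were summed per hashtag and class with at least 5 cells, filtered with filterByExpr, scaled by TMM and tested with edgeR 4.0.16 (glmQLFit and glmQLFTest, hashtag as block, 0.05 after Benjamini-Hochberg adjustment), giving 3 residual degrees of freedom for Nras and 2 for depth. Each mouse gives several sums and classes share baseline cells, so comparisons between classes are not independent. The fit was checked on simulated data. Alternatives used DESeq2 1.42.0, other scaling, filters, hashtag rules and cell rules. Named genes were the 10 members, called genes of each list with the largest log2 differences and the 3 genes most like a member. The members and lists were chosen with earlier results of these data known.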

Additional observations from a re-analysis of the deposited data

Results flagged for a closer look

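Lcn2 moved in opposite directions in the 2 mice that had high-Nras cells. The ratio of its high to its baseline level was 0.204 (0.135 to 0.298) in hashtag 1 and 1.25 (1.15 to 1.37) in hashtag 2. The difference between the slopes of the 2 mice over the Nras classes was 0.61 on the log2 scale per class (SE 0.32, unadjusted p = 0.0803, edgeR adjusted p = 0.765), so it was not called. In the high class of hashtag 2, 1 cell held 43.2% of the Lcn2 UMIs, and without it the level was 76.9 CPM, below the 105 CPM of baseline. Of 10534 genes, 1 differed in slope between the mice (0.00949%), and 745 had an unadjusted p under 0.05. None of the members was called by edgeR in this test, and 3 of them (Apcs, Hamp and Orm2) had an unadjusted p under 0.05.

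Lbp was detected at 111 CPM in the barcodes of hashtag 3 that did not meet the hepatocyte rule, above the 39.9 CPM of that mouse's hepatocytes. In the 459 barcodes of hashtag 3 led by endothelial markers it was at 134.9 CPM (119.2 to 152), and 40.3% of them held an Lbp UMI. These barcodes took no part in the fits, which used hepatocytes only. They were among the pooled barcodes under the rule. That pool gave the Hamp2 share of 13.2%, the 4931 CPM of hepatocyte markers and the reference levels in the plots by depth class. They held 268 Lbp UMIs, against 17 in the 852 pooled barcodes led by dendritic markers.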

How the results depend on the processing

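The count of 7 members lower in the high class stayed between 5 and 8 under every alternative that gave a count. In the intermediate class it was 4 with DESeq2 and 2 with the hepatocyte rule at 5%, against 7. The low class, with 1 call, had 3 with library sizes alone, 7 with no filter on low counts, 3 with a fixed hashtag rule, 6 without barcodes with other cell type markers, 2 with up to 50% mitochondrial UMIs, 4 with thinned cells, 4 with sums of at least 1 cell and 2 with those sums without hashtag 1 (the sums of at least 1 cell were chosen after seeing the data). It was 0 with no replicate block and 0 with classes set by mVenus, where edgeR gave 4 of 10 an unadjusted p under 0.05 in each. For depth, with 5 calls, it was 3 with library sizes alone, 1 with no replicate block, 2 with thinned cells, 3 with all Nras classes, 0 with the fixed hashtag rule, 0 with the 5% rule, and 2 to 5 when 1 hashtag was left out. These counts stand without the share of all genes called in each alternative. A change in them therefore cannot be read as particular to the members. Levels at least 2-fold apart by mouse were 2 in the deposited pairing (0, 1 and 1 with the fixed hashtag rule, deep cells alone and the 5% rule) and 1 in the other pairing (3, 2 and 3). Signs turned for Lcn2 in the high class (0.30 without hashtag 1 and -2.22 without hashtag 2, 0.73 at 5%), for Orm2 (1.42 without hashtag 2 and -2.74 without hashtag 1, 0.02 at 5%) and Lcn2 (0.27 at 5%) in the intermediate class, and in the low class for Lcn2 (-0.27 without hashtag 1 and 0.93 without hashtag 2, -0.04 thinned, -0.29 by mVenus, -1.42 without hashtag 1 in sums of at least 1 cell), Saa3 (1.19, fixed rule) and Orm2 (0.01 at 5%, 0.72 by mVenus). For depth they turned for Hamp (-0.06 with library sizes, -0.10 at 5%, -0.17 without other markers, -0.24 with all Nras classes), Saa1 (0.22 without hashtag 1 and -1.31 without hashtag 2, 0.44 fixed rule), Orm2 (0.00 without hashtag 1 and -1.27 without hashtag 3, 0.02 fixed rule), Saa2 (0.04 without hashtag 2 and -3.45 without hashtag 3, 0.20 fixed rule), Lcn2 (-0.38 at 5%) and Apcs (-0.02 at 5%). None of these turned values belonged to a member called in both fits, and the cause was not tested. Leaving out hashtag 1 or 2 in the Nras fit left no residual degrees of freedom, so those are values with no test. The fixed rule kept 380 of 1129 deep cells of hashtag 2 and moved none between hashtags, and it gave 285 of 851 deep cells without a call to hashtag 1.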
